A study of Aspergillus nidulans with 4 samples.

Results

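Aspergillus nidulans is a filamentous fungus that makes polyketides. The 9 genes described here, AN0523 to AN0531, are neighbours on chromosome VIII. AN0523, at one end of the set, is called a putative polyketide synthase in the deposited function text. They are 9 of the 10930 genes listed. They were chosen by their place beside AN0523 and with their mean counts in both strains already known. The difference between the strains is therefore given for them as a description and was not tested.

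Mycelium of 2 strains was compared by RNA-seq, with 2 samples per strain and 4 in all. The strains were the *pkaA* deletion strain (FGSC A1358, labelled AN1358, called Δ*pkaA*), which lacks a catalytic subunit gene of the cyclic AMP-dependent protein kinase PKA, and its parent (FGSC A1405, labelled AN1405, called WT). How *pkaA* was replaced, and which other markers the strains carry, is not given in the sources used here, and each genotype is a single strain. After a seed culture of 12 h at pH 3.3, both were grown at 28°C and 250 rpm in YGV, which holds yeast extract at 0.5% and glucose at 2%, and harvested after about 20 h. The design text gives 2 biological and 2 technical replicates, and how the technical ones entered the counts is not given.

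Polyketide synthases are large enzymes that build a carbon chain from small acyl units. In fungi the synthase gene commonly lies next to genes for enzymes that modify the product, for a transporter and for a regulator, and such clusters are often silent in laboratory culture. Genes of a cluster are often expressed together.

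The values are the authors' mean normalized counts, which are reads per gene divided by a size factor of each library and then averaged within a strain, with no standard deviation. The means summed to 29312151 for Δ*pkaA* and 31012501 for the WT. Because each mean is built from whole reads of 2 libraries, the reads of each library could be worked out for 99.8% of the means up to 3000 in either strain. Where several pairs of reads gave the same mean, the only pair with libraries within 1.5-fold of each other was taken, so that closeness was set by this choice. This supplied 3222 of the 8810 recovered Δ*pkaA* means and 617 of the 8734 of the WT. Among the members it applied to the Δ*pkaA* reads of AN0524, AN0525, AN0526 and AN0528, while the WT reads of all 9 were unique. The libraries are called a and b within each strain, a having the larger size factor, and they cannot be matched to the labelled replicates. The deleted gene itself, *pkaA* (AN6305), had 79 and 69 reads in the Δ*pkaA* libraries and 1892 and 1851 in those of the WT. Housekeeping genes of growing hyphae were abundant in both strains, the lowest mean among 4 genes being 23721. Their ratios, Δ*pkaA* over WT, ran from 0.466 (AN4218) to 1.40 (AN1182), and only AN4218 was past 2-fold. Of 7 markers of asexual sporulation, the Δ*pkaA* mean of 1 was higher and that of 3 was lower by 2-fold or more. The shares over all genes with reads in at least 1 strain were 17.9% and 18.6%. By any amount, 4 of the 7 were higher and 3 lower. Summed, the marker means came to 709 for Δ*pkaA* and 1685 for the WT, of which *abaA* (AN0422) alone held 134 and 951. The part of these markers in the values below was not tested.

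The Δ*pkaA* means of all 9 genes exceeded the WT means by 10-fold or more. Of the 10545 genes with reads in at least 1 strain, 17.9% exceeded 2-fold in this direction and 5.4% exceeded 10-fold. The log2 ratio, Δ*pkaA* over WT, had a median of 5.63 over the 9 genes and of -0.0071 over the 10197 genes with reads in both strains. Summed over the cluster, the means came to 22154 for Δ*pkaA* and 245 for the WT, or 0.0756% and 0.00079% of all normalized counts. In mycelium measured in bulk, fewer expressing cells and less RNA per cell cannot be told apart.

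**Figure D1:**
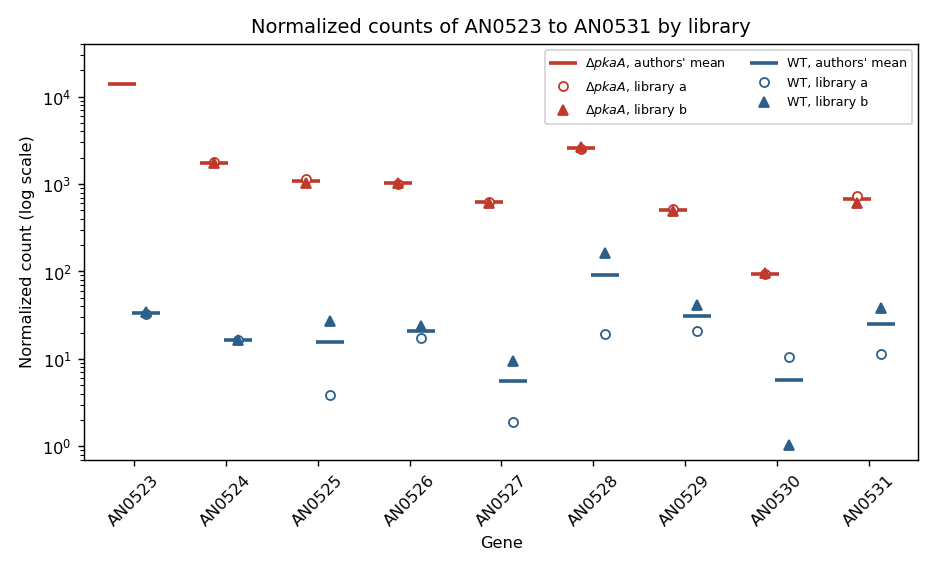
Normalized counts (log scale) of the 9 genes in both strains. Bars are the authors' means, circles library a and triangles library b. Δ*pkaA* means run from 94.4 to 13800 and WT means from 5.64 to 91.3, for AN0523 the Δ*pkaA* libraries could not be separated, and for AN0524, AN0525, AN0526 and AN0528 their closeness was set by how reads were recovered.

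The core enzyme gene, AN0523, lies on the plus strand from base 3279992 to base 3287961 of the authors' annotation, whose release is not named. Its WT libraries held 34 and 33 reads, a mean normalized count of 33.5. The authors' mean in the Δ*pkaA* strain was 13800, a ratio of 413. With the Δ*pkaA* mean taken as given, the 95% interval of the ratio, exact for Poisson reads in the WT, was 325 to 532 and covers counting error only. Of the 8161 genes whose strain means averaged 100 or more, 17 with reads in the WT had a higher ratio. Ranked by mean among all 10930 genes, the synthase gene was number 8664 in the WT and number 323 in the Δ*pkaA* strain.

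The Δ*pkaA* mean of AN0523 can be split into library reads in several ways, so only limits can be given. Among splits that keep the libraries within 1.5-fold of each other, either Δ*pkaA* library held between 11350 and 16366 reads.

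Tailoring enzymes are the group of a polyketide cluster that modify the chain after the synthase releases it. AN0525 (minus strand, 3276778 to 3277672) is predicted to be an oxidoreductase. It had 1169 and 1017 reads in the Δ*pkaA* libraries a and b, and 4 and 26 in those of the WT. The WT libraries were therefore far apart, and the ratio of the means, 70.6, was 40.3 with WT library a left out and 285 with b left out.

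AN0526 (plus strand, 3275172 to 3276281) has domains of an iron-binding oxygenase that uses 2-oxoglutarate. It had 1026 and 1010 reads in the Δ*pkaA* libraries and 18 and 23 in those of the WT, a ratio of 49.4. Leaving out either WT library gave a ratio of 42.5 or 59.0, within 1.5-fold of the ratio of the means.

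AN0530 (minus strand, 3268888 to 3270307) is predicted to bind FAD, a flavin that many oxidases carry. Its libraries held 95 and 94 reads for Δ*pkaA*, against 11 and 1 for the WT, a ratio of 16.3. The ratio became 90.7 when WT library a was left out and 8.97 when WT library b was. This was the only gene of the 9 with more normalized counts in WT library a than in b.

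AN0528 (plus strand, 3272020 to 3273606) is predicted to be a membrane protein with a role in transport, the class that exports the product in many clusters. The Δ*pkaA* libraries held 2596 and 2615 reads and the WT libraries 20 and 157. It had the highest WT mean of the 9, 91.3, and nearly all of it came from library b. The ratio of the means was 28.5, but 15.9 with WT library a left out and 136 with b left out.

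For AN0529 (minus strand, 3270687 to 3271628) the function text lists no domain but names related genes of the same genome, among them *dbaE* and *afoC*, genes of the dba and asperfuranone polyketide clusters. It had 533 and 482 reads in the Δ*pkaA* libraries and 22 and 40 in those of the WT, a ratio of 16.2, the lowest of the 9. Its lowest Δ*pkaA* library was 11.8-fold above its highest WT library. This was not particular to AN0529. Over the 4 members with unique reads in both strains, the same measure ran from 8.84 (AN0530) to 64.9 (AN0527). For AN0524, AN0525, AN0526 and AN0528 this measure was partly set by how the Δ*pkaA* reads were recovered. How many of all genes were apart in this way was not counted.

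The other 3 genes have no predicted function. AN0524 (plus strand, 3277943 to 3278960), next to the synthase gene, had 1822 and 1691 reads in the Δ*pkaA* libraries and 17 and 16 in those of the WT, a ratio of 107. The WT libraries were even, and the ratio was 105 with WT library a left out and 108 with b left out. AN0527 (minus strand, 3274185 to 3274511) had 641 and 597 reads in the Δ*pkaA* libraries and 2 and 9 in those of the WT. Its ratio of 110 rested on few WT reads and became 66.0 when WT library a was left out and 323 when WT library b was. AN0531 (plus strand, 3267943 to 3268640), at the end of the set away from the synthase gene, had 749 and 593 reads in the Δ*pkaA* libraries and 12 and 37 in those of the WT. Its ratio of 26.8 was 17.4 with WT library a left out and 58.2 with b left out.

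The function text also names relatives in other fungi. It lists AFL2T_09053 of Aspergillus flavus for AN0524 and AFL2T_09050 of the same species for AN0527.

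Spread between libraries was fitted with limma, on log2(value + 1) with a trend of the variance. The fit covered the 6756 genes that averaged 10 or more and whose reads could be recovered for all 4 libraries, counts of 0 included. Of these genes, 2770 had a pair of reads chosen for balance in at least 1 strain. The Δ*pkaA* reads of 4 members, AN0527, AN0529, AN0530 and AN0531, were unique. For these 4 the standard error of the log2 difference ran from 0.31 (AN0529) to 0.74 (AN0530), beside differences of 4.05 and 4.30. Their standard deviation on the log2 scale ran from 0.028 to 0.20 between Δ*pkaA* libraries and from 0.70 to 2.36 between WT libraries. Leaving out a Δ*pkaA* library moved the ratio of 0 of these 4 by more than 1.5-fold. When a WT library was left out, the ratios of 5 of the 9 members moved by more than 1.5-fold, and the lowest ratio so obtained was that of AN0530, 8.97.

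The members therefore differed in how evenly the WT libraries held them. In normalized counts, 5 of the 9 differed by more than 2-fold between WT libraries, and 8 of the 9 were higher in library b. Of the 1662 genes with WT means of 5 to 100 and recovered reads, 15.4% differed by more than 2-fold and 64.4% were higher in library b. For AN0525 the normalized counts were 3.83 in library a and 27.1 in library b. For AN0528 they were 19.1 and 163. AN0530, unequal the other way, had 10.5 and 1.04. AN0523 and AN0524 lay at the even end, with 32.5 and 34.4 for the first and 16.3 and 16.7 for the second. Over all 9 genes the WT libraries held 140 and 342 reads, or 120 and 185 without AN0528.

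**Figure D2:**
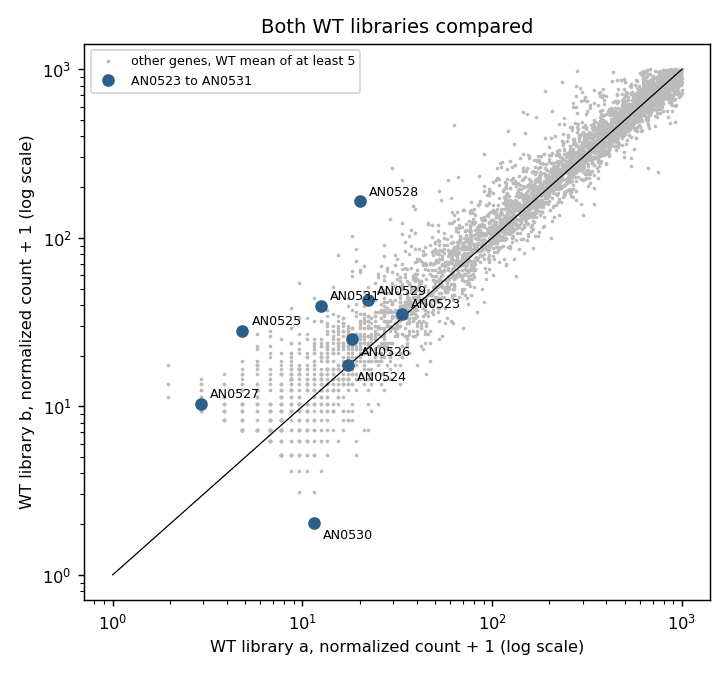
Normalized count + 1 in WT library b against WT library a (both log scales, up to 1000), for genes with a WT mean of at least 5 (grey) and the 9 members (blue); the line marks equal values. AN0525 and AN0528 lie far above the line, AN0530 lies below it, and AN0523 and AN0524 lie on it.

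Reads per gene rise with gene length, so levels were compared between genes as mean normalized counts per kb of listed span. In the Δ*pkaA* strain AN0527 had the highest level, 1890 per kb, followed by AN0523 with 1732, AN0524 with 1723 and AN0528 with 1641. AN0525 followed with 1219 per kb, AN0531 with 958, AN0526 with 916, AN0529 with 538 and AN0530 with 66.5. The synthase gene, far ahead in reads, was thus near AN0524 in level. AN0529 and AN0530, the only neighbours in this order that both had unique reads, did not overlap between libraries. For the other pairs the spread between Δ*pkaA* libraries is not known for at least 1 gene, so their order rests on the means.

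In the WT the order was another one. AN0528 led with 57.5 per kb, then AN0531 with 35.8 and AN0529 with 33.3, all 3 from the end of the cluster away from the synthase gene. AN0526 had 18.5 per kb, AN0525 and AN0527 each 17.3 and AN0524 16.2, while AN0523 with 4.20 and AN0530 with 4.07 were lowest. Of the 8 pairs of neighbours in the WT order, 6 overlapped between libraries. Across the 9 genes, the levels per kb in the Δ*pkaA* strain and the WT had a Pearson correlation of 0.123 and a Spearman correlation of -0.133, a description of genes that share their libraries. AN0530 had the lowest mean per kb in both strains, but in the WT it overlapped with AN0523, and with WT library b left out it had 7.42 per kb, above AN0523 with 4.08, AN0525 with 4.28 and AN0527 with 5.86.

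**Figure D3:**
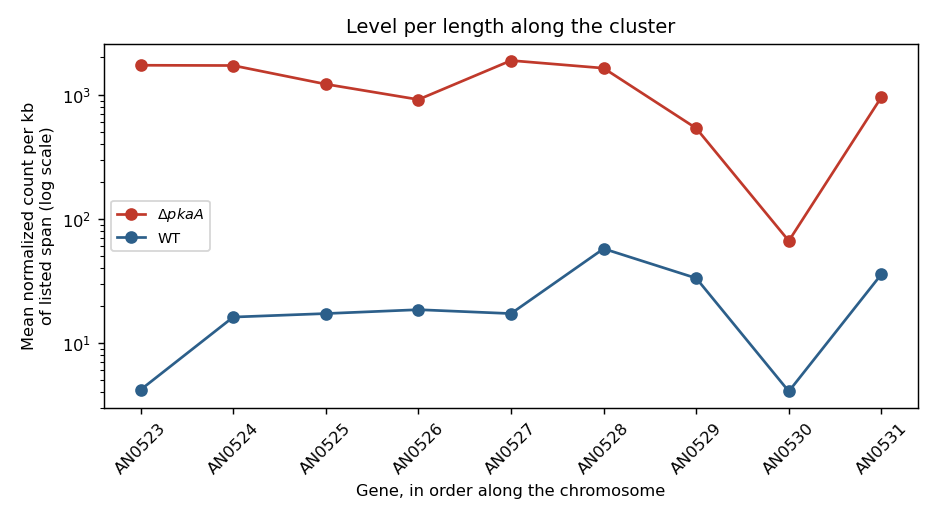
Mean normalized count per kb of listed span (log scale) for the 9 genes in chromosome order, in the Δ*pkaA* strain (red) and the WT (blue). AN0523 is second in the Δ*pkaA* strain with 1732 per kb but next to last in the WT with 4.20.

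The 9 genes span 20019 bases in the authors' annotation, from 3267943 to 3287961, with 5 on the plus and 4 on the minus strand. The 8 gaps between them measure 247 to 1031 bases, and no listed spans overlap. In 3 places neighbours point away from each other and share the sequence between their starts. The pair AN0524 and AN0525, 270 bases apart, had log2 ratios of 6.73 and 6.14. For AN0526 and AN0527, 660 bases apart, they were 5.63 and 6.78, and for AN0528 and AN0529, 391 bases apart, 4.83 and 4.01. At the ends of the cluster the log2 ratio was 8.69 for AN0523 and 4.74 for AN0531. Log2 ratios tended to be lower at greater distance from the synthase gene, but not in strict order. AN0527, in the middle of the cluster, had the second highest, and AN0531, the farthest, was above AN0529 and AN0530. For 5 of the 9 genes the ratio moved by more than 1.5-fold when a WT library was left out, so the order rests on uneven WT libraries. Between the distance of a gene's listed start from that of AN0523 and its log2 ratio, Pearson's correlation was -0.889 and Spearman's -0.833 over the 9 genes, which share their libraries and are given here as a description.

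Genes just outside the set were read in the order of a RefSeq gene table of assembly ASM1142v1. On the far side of AN0523, the ratio could not be formed for the next 3 genes. AN0522 had 1 read in each Δ*pkaA* library and 0 in the WT, AN0521 had 1 read in 1 Δ*pkaA* library, and AN0520 had 0 in all 4 libraries. A count of 0 allows up to 3 reads, so these genes were not measurable at this depth, although AN0522 starts 719 bases after the end of the synthase gene. The drop from AN0523 to AN0522 was thus a drop to almost no reads in either strain.

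On the other side the fall was smaller. AN0532, a predicted transposon-related reading frame whose listed span ends 456 bases before that of AN0531 starts, had 58 and 55 reads in the Δ*pkaA* libraries and 33 in each WT library, a ratio of 1.71. AN0533, a putative transcription factor gene beyond it, had 347 and 402 reads in the Δ*pkaA* libraries and 36 and 39 in those of the WT. Its ratio of 9.98 lay between those of AN0532 and the members, and its libraries were even in both strains. AN0534, predicted to bind GTP, followed with 8 and 4 reads in the Δ*pkaA* libraries and 1 and 3 in those of the WT. From AN0535 to AN0539 the ratios lay between 0.709 and 1.44.

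Among the 20 genes on either side, 10 each, 16 had reads in both strains. Of these, the Δ*pkaA* mean was higher by 2-fold or more in 5, lower by as much in 2 and within 2-fold in 9. For comparison, 17.9% of all genes with reads in at least 1 strain were higher and 18.6% lower by as much. AN0540, whose function is not known, had 226 and 237 reads in the Δ*pkaA* libraries and 31 and 35 in those of the WT, a log2 ratio of 2.81. The putative chitinase gene AN0541 went the other way, with 7 and 5 reads in the Δ*pkaA* libraries and 40 and 141 in those of the WT. These 2 genes overlap by 120 bases on opposite strands, and the library kit does not mark the strand, so reads in the overlap cannot be told apart. On the AN0523 side, AN0519 was 2.88-fold lower, AN10104 was 2.34-fold higher and AN0512 was 2.64-fold higher. AN0518 had a ratio of 1.81, AN0515 one of 1.22 and AN0517, another putative chitinase gene, one of 0.909, while AN10085 was at 0 in all 4 libraries. The genes beside the set are described without a test, since its edges were drawn with these values known.

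**Figure D4:**
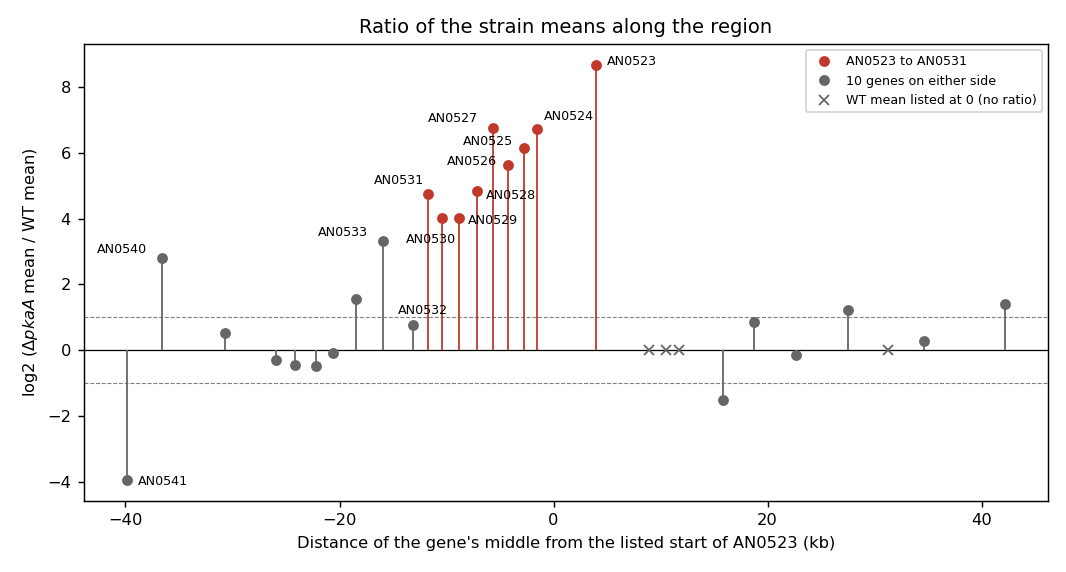
The log2 ratio of the strain means against the distance of each gene's middle from the listed start of AN0523 (kb), for the 9 members (red) and 10 genes on either side (grey). Dashed lines mark 2-fold, crosses mark genes listed at 0 in the WT, and the members stand from 4.01 to 8.69 beside 0.78 for AN0532 and 3.32 for AN0533.

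The function text names a polyketide synthase for 29 other genes, which were set beside AN0523. For 2 of them, AN7814 and AN7815, it reads polyketide synthase/fatty acid synthase beta and alpha. Both are counted below with the synthase genes. In the WT, AN0523 was number 19 of the 30 by mean normalized count per kb, and in the Δ*pkaA* strain it was number 1. Of the other 29, 2 were at 0 in both strains. By the means alone, 7 were higher in Δ*pkaA* by 2-fold or more, 12 were lower by as much and 8 lay within 2-fold, the 27 having a median log2 ratio of -0.19. Over the 10545 genes, 17.9% were higher and 18.6% lower by as much. The genes of this list thus did not move one way.

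Of the 29 genes, 19 passed into the limma fit. At a Benjamini-Hochberg adjusted p below 0.05 and at least 2-fold in limma, 5 of the 19 rose and 8 fell in the Δ*pkaA* strain, while 17.3% of all genes fitted rose and 15.2% fell. The p-values rest on the spread between 2 samples per strain, drawn by limma toward a trend over all genes fitted. For 2770 of the genes fitted, a pair of reads was chosen for balance, so that trend is partly set by this choice. Without Δ*pkaA* library b, 2 rose and 5 fell, and without WT library a, 3 rose and 7 fell. The hybrid polyketide and peptide synthase gene AN8412 rose from 192 and 111 reads in the WT libraries to 402 and 598, a log2 difference of 1.74 with a standard error of 0.28 (adjusted p = 0.001555, limma). AN6000 rose from 61 and 76 reads to 194 and 182, by 1.45 on the log2 scale with a standard error of 0.22 (adjusted p = 0.00109, limma).

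The 4 synthase genes with the largest differences had means above the range in which reads can be recovered, and were not tested. AN7903 was the nearest to AN0523 among synthase genes, with 5 and 25 reads in the WT libraries and a Δ*pkaA* mean of 3969, a ratio of 258. The other 3 lay at the opposite end. AN8910 had 5 and 6 reads in the Δ*pkaA* libraries and a WT mean of 11412, AN3230 had 72 and 95 reads and a WT mean of 18390, and AN2547 had 138 and 134 reads and a WT mean of 14824. In the Δ*pkaA* strain the synthase with the most reads was therefore AN0523, and in the WT it was AN3230.

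**Figure D5:**
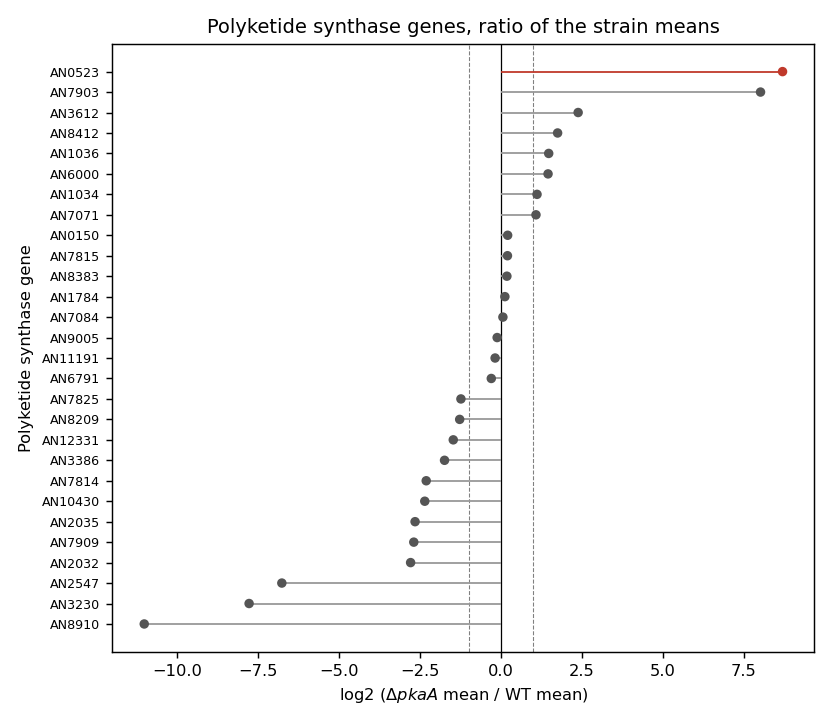
The log2 ratio of the strain means for AN0523 (red) and the 27 other polyketide synthase genes with reads in both strains (grey), in order, with dashed lines at 2-fold. AN0523 at 8.69 and AN7903 at 8.01 stand apart at one end and AN2547, AN3230 and AN8910 at the other.

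The genes that AN0529 is paired with in the function text were looked at after the values were seen. *dbaE* (AN7899), a putative esterase or lipase gene, had a Δ*pkaA* mean of 2140 and 40 and 101 reads in the WT libraries, a log2 ratio of the means of 4.90. Whether reads are shared between these related genes could not be checked. AN2031 went the other way, with 26 and 17 reads against 146 and 122, a log2 difference of -2.61 with a standard error of 0.28 (adjusted p = 0.000205, limma). The log2 ratio of the means was 0.45 for AN9159 and 0.50 for *afoC* (AN1032), both below 2-fold. Of the 4 relatives, only *dbaE* was thus higher in Δ*pkaA* by 2-fold or more, as AN0529 was, and AN2031 was lower by as much. Among all genes with reads in at least 1 strain, 17.9% were higher and 18.6% lower by 2-fold or more.

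A polyketide synthase needs malonyl-CoA and an attached phosphopantetheine arm, and its cluster is often under the velvet complex. Of 7 such helper and regulator genes, 5 could be fitted, and 2 of the 5, *vosA* and AN6140, had unique reads in both strains. Among the 5, 0 rose and 1 fell by at least 2-fold in limma, beside 17.3% and 15.2% of all genes fitted. The gene that fell was *vosA* (AN1959), which encodes a velvet-family protein of spores, with 421 and 460 reads in the Δ*pkaA* libraries and 951 and 976 in those of the WT, a log2 difference of -1.13 with a standard error of 0.13 (adjusted p = 0.000269, limma). The phosphopantetheinyl transferase gene AN6140 had 878 reads in each Δ*pkaA* library and 595 and 621 in those of the WT, a ratio of 1.44. The velvet complex genes *laeA* (AN0807) and *velB* (AN0363) had ratios of 0.748 and 0.756, and *veA* (AN1052), above the range of the fit, one of 0.775. The acetyl-CoA carboxylase gene AN6126, also above that range, had authors' means of 13043 and 6257, a ratio of 2.08. AN9399, with a role in histone methylation, had a ratio of 1.08. Next to the members, whose ratios started at 16.2, the ratios of these 7 genes ran from 0.457 to 2.08.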

How the data were processed

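RNA was measured in 2 samples of each strain. Per the labels and the methods, reads of 100 bases were aligned with bowtie2 to the AspGD reference, counted with HTSeq and compared with DESeq; the sources used here name neither versions nor a genome release. The deposited values are a signal made by the authors, namely normalized counts averaged within each strain, and the strain of each column was read from a supplementary header. Their fold changes, p-values and q-values were not used. A second deposited table, of 190 genes, lists none of the 9 members and was not used.

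Reads per library were recovered as pairs of whole numbers within 6e-05 of a mean, up to a mean of 3000. Where several pairs existed, the only one with libraries within 1.5-fold was kept, which holds for the Δ*pkaA* reads of AN0524, AN0525, AN0526, AN0528, AN7899, AN9159, AN0539, AN0512, AN0807 and AN9399, for both strains of AN0363, and for 41% of the genes limma fitted. Their spread is therefore no measure of replicate error. Recovery and limma were tested on simulated data, with the libraries of a strain drawn around the same mean. Such data do not cover genes whose libraries lie far apart, as those of AN0528 and AN0530 did in the WT. A test on counts was not run because the deposited values are means. limma was used on log2(value + 1), with Benjamini-Hochberg adjustment over all genes fitted and an average of at least 10. The trend was fitted over genes of low and middle expression only. Depth limits low genes, and intervals and the floor of 3 reads cover counting error only. Called genes were at least 2-fold apart with an adjusted p below 0.05.

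Members and lists were chosen with earlier results of these data known. Genes named are the members, the 10 genes on either side, the helper list, and of the synthase genes with an average of at least 100 the 3 highest and 3 lowest ratios. AN8694 was left out of the helper list because its function text does not name it. In the position range of the members, 4 listed genes have no match in the RefSeq table and so no chromosome, and are not described. Promoter motifs were not analysed here. Alternatives were the pseudocount, the scaling, the fold limit, the filter and leaving out each library. The fit used limma 3.58.1 in R 4.3.3, and other steps used pandas 2.3.3 and SciPy 1.17.1 in Python 3.11.15.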

Additional observations from a re-analysis of the deposited data

How the results depend on the processing

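All 9 members exceeded 2-fold under every setting run on the means: fold limits of 1.5 and 4, pseudocounts of 1 and 10, both other scalings and the filter on low values. The members were chosen with these means known and their lowest ratio was 16.2, so this count could hardly change and is no test. The share of all genes at least 2-fold higher was 17.9% and fell to 9.93% at 4-fold. Rescaling to the same sum moved log2 ratios by 0.081 and centring by -0.015. None of 78 alternative log2 ratios of members changed sign, and they ran from 2.73 to 8.77. The log2 ratio of AN0528, 4.83, was 3.99 without WT library a and 7.09 without b. That of AN0530, 4.03, was 6.50 without WT library a and 3.165 without b. Among the other polyketide synthase genes, limma calls higher in the Δ*pkaA* strain went from 5 to 3 with a pseudocount of 10 and to 3 without the filter. Leaving out 1 library gave 2 to 5 higher and 5 to 8 lower; the lone sample of a strain is then assumed to vary like the others. Fitting only the 3986 genes with a unique pair of reads in both strains gave 5 higher and 8 lower. It held the same 19 synthase genes with the same reads, so only the trend and the adjustment could change. Of all genes in that fit, 19.8% were higher and 23.9% lower. This fit and the mean of log2 values over libraries were chosen after seeing the data. The mean of log2 values moved AN0528 most, from 4.83 to 5.50. The cause of these shifts was not tested. No paired analysis was possible because the deposited columns are strain means and the recovered libraries carry no replicate number.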

Other observations

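Beyond the chitinase gene AN0541 beside the cluster, the WT libraries differed for some of the next genes, described here with their values in view. Normalized counts in WT libraries a and b were 13.4 and 50.0 for AN0542 and 27.8 and 129 for AN0543, while AN0544 went the other way with 10.5 and 2.08. AN0545 was even, with 6.70 and 6.25. Of the 1662 genes with WT means of 5 to 100 and recovered reads, 15.4% differed by more than 2-fold. The polyketide synthase gene AN7909 had 232 in library a and 844 in library b.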
